A study of Mus musculus with 6 samples.

Results

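The integrated stress response core described here is a set of 10 genes: Atf4, Atf5, Ddit3, Trib3, Asns, Chac1, Ppp1r15a, Eif4ebp1, Sesn2 and Vldlr. They were chosen by name, as ATF4, its relative ATF5, CHOP (the product of Ddit3) and direct targets of the response, and each matched 1 of the 47643 rows of the deposited expression table. The values come from RNA-seq of leukaemic granulocyte-macrophage progenitors (GMP), leukaemia cells resembling the normal precursor that yields monocytes and granulocytes, which were sorted from mice of strain C57BL/6. Of the 6 libraries, 3 were wild type (WT) and 3 came from cells with a double knockout (KO) of Prkaa1 and Prkaa2, the genes of both catalytic subunits of AMPK, the AMP-activated kinase that senses low cellular energy. The series title asks how AMPK ties acetyl-CoA to the recruitment of BET proteins, which read acetylated histones, in acute myeloid leukaemia. The labels used here name no driver oncogene, no deleting transgene, no age and no number of mice. They do not say whether each replicate is a mouse of its own, so the p-values reflect the spread among these libraries alone, and that spread may be technical.

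The integrated stress response begins when kinases that sense amino acid shortage, misfolded protein in the endoplasmic reticulum (ER), haem shortage or double-stranded RNA phosphorylate the initiation factor eIF2. Protein synthesis then slows, while the Atf4 messenger is translated more, so that ATF4 is controlled largely at translation and its RNA level need not follow its protein. ATF4 pairs with C/EBP and related basic leucine zipper proteins and turns on genes of amino acid supply, tRNA charging and, under lasting stress, Ddit3. RNA-seq reads transcripts only, and neither eIF2 phosphorylation nor ATF4 protein was measured.

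Whole reads recovered from the deposited values came to between 11390494 and 16416122 per library. Prkaa1 lay at 2.01, 2.20 and 1.80 FPKM in the 3 WT libraries and at 1.11, 0.735 and 0.548 FPKM in the 3 KO libraries. FPKM is a level per gene length, here scaled by a size factor per library and not by total reads. The KO mean of Prkaa1 was 39.8% of the WT mean, while Prkaa2 had at most 2 reads in any library. Of the GMP markers, Mpo and Elane, genes of primary granules, were abundant in both genotypes (158 to 162 and 1697 to 1804 FPKM in WT, 437 to 447 and 7853 to 8045 FPKM in KO), whereas Kit, the receptor by which such cells are usually sorted, lay between 0.180 and 0.309 FPKM in WT and between 1.41 and 1.46 FPKM in KO. Cd34 lay between 27.0 and 28.7 FPKM in WT and between 3.37 and 3.68 FPKM in KO. Fcgr3 lay between 126 and 131 FPKM in WT and between 61.8 and 70.2 FPKM in KO. Fcgr2b ran from 14.6 to 15.4 FPKM in WT and from 3.65 to 4.67 FPKM in KO. Flt3 ran from 1.32 to 1.62 FPKM in WT and was at 0 in KO. Of 10 tested GMP markers, 5 were called higher and 5 lower. Summed over 13 markers of maturing neutrophils, expression ran from 596 to 608 FPKM in WT and from 81037 to 82938 FPKM in KO, and over 14 markers of basophils, mast cells and eosinophils from 32.9 to 39.0 FPKM in WT and from 582 to 613 FPKM in KO. The sum over 13 erythroid markers ran from 37.9 to 41.1 FPKM in WT and from 243 to 249 FPKM in KO. Sums over B cell markers (83.6 to 91.2 FPKM in WT, 56.0 to 58.2 in KO) and over T and natural killer cell markers (51.6 to 54.7 and 115 to 117) were smaller in range, with Pax5, Cd3e, Cd3g, Cd8a, Trac, Klrb1c and Ncr1 at 0 in all 6 libraries. Monocyte and macrophage markers summed to between 478 and 492 FPKM in WT and to between 167 and 177 FPKM in KO. Within these sums the tested members went 9 of 9 higher for neutrophils and 9 of 9 higher for basophils, mast cells and eosinophils. For erythroid cells 8 of 9 were higher, and among all genes tested 38% were. Of the genes so counted, Prss34, Fcer1a, Prg3, Epx and Gata1 were at 0 in every WT library. They could pass the minimum for testing only through KO, which fixed the direction of their calls. Mmp9 of the neutrophil list and Alas2 of the erythroid list lay under the minimum for testing. Both were at 0 in every KO library but not in every WT library. Against the lower sums of their lists, Ighm and Adgre1 were called higher. B cell markers went 1 higher and 1 lower of 2 tested, and monocyte and macrophage markers 1 higher and 2 lower of 3 tested. Cd79a and Ms4a1 were at 0 in WT but not in KO. The T and natural killer cell list had 1 tested member, Nkg7, called higher. These markers moved together with every difference between the genotypes given below, and their part in the results was not tested. In such bulk samples, fewer cells of a type and less RNA per cell cannot be told apart.

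RefSeq promoter windows (250 bases before to 50 bases after a start site, build GRCm38.p6, the build of mm10) were at hand for 9 of the 10 members, all but Eif4ebp1, in 11 windows. They were searched on both strands for the C/EBP-ATF response element, the DNA site of ATF4 with its partners, written here as TGATGNAA. It was found in Chac1, Trib3, Asns and 1 of 2 windows of Vldlr, that is in 4 of 9 members. Of all genes with a window, 1219 of 27025 (4.51%) hold it, and of the tested genes with one, 170 of 6358 (2.67%). The members were chosen as genes of the response, and whether their share is higher was not tested. The 4 stretches are shown because matches to TGATGNAA stand beside genes called in opposite directions between the genotypes, Chac1 higher and Trib3 and Asns lower. Vldlr was not tested. Binding of ATF4 to these sites was not measured. All are 5′ to 3′ on the strand of the gene, with the match in capitals. Chac1 is shown over the 237 bases up to its first annotated exon and the others as 30 bases around the match. In Chac1, Trib3 and Vldlr the capitals are the reverse complement of the element.
Chac1: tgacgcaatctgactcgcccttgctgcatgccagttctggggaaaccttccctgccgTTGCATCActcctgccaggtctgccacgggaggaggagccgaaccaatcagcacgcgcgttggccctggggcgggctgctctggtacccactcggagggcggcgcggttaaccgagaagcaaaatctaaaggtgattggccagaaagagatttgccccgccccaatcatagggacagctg
Trib3: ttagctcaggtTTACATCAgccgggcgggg
Asns: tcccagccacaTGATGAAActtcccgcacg
Vldlr: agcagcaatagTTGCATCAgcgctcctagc
The Chac1 stretch lies at chr2:119350992-119351228 on the plus strand, with the match from -193 to -186 relative to the RefSeq start. The Trib3 stretch (chr2:152344028-152344057, minus strand) holds its match from 15 to 22 counted from the RefSeq start but before the first exon of the GENCODE M21 annotation. The Asns stretch (chr6:7693214-7693243, minus strand) holds its match from -23 to -16, inside the first exon of GENCODE M21. The Vldlr stretch (chr19:27216809-27216838, plus strand) has its match from -200 to -193 relative to the second RefSeq start of that gene, inside an annotated exon. No match to these letters stands in the windows of Atf4, Atf5, Ddit3, Ppp1r15a and Sesn2. Ppp1r15a has the palindrome TGACGTCA, a cyclic AMP response element, from -12 to -5 relative to its start. That sequence was found in 1.79% of all windows, in 2.03% of all genes with a window and in 3.90% of the tested ones. The longer ER stress element (ERSE), searched in its full consensus, stands in 0.119% of all windows and in none of the members'.

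The response core split between the genotypes. In KO libraries Ddit3 and Chac1 were higher (3.34-fold and 1.76-fold), while Sesn2, Trib3, Eif4ebp1 and Asns were lower (4.11-fold, 2.95-fold, 2.29-fold and 2.14-fold). Atf5 was 1.35-fold lower, and Atf4 itself differed by 1.05-fold. Ppp1r15a did not pass the test, and Vldlr was at the limit of detection. The test was a limma linear model of log2(FPKM + 1) over 9108 genes, those whose mean reached 1 FPKM, with Benjamini-Hochberg adjustment over all of them, and a gene is called higher or lower where the adjusted p was under 0.05. Log2 differences are KO minus WT on that scale, which understates changes of low genes, and folds are ratios of mean FPKM (n = 3 libraries per genotype). Of the 10 members 9 were tested, each with a mean above 1 FPKM in both genotypes, and Vldlr was not. Of these 9, 3 were called higher, where 38% of all genes tested were, and 5 were called lower, where 40.4% of all genes tested were. With libraries rescaled to equal sums, 2 were higher and 7 lower, beside 22.8% and 59.1% of all genes tested. Atf4 had then turned to lower and Ppp1r15a was called lower. As deposited, 8 of 9 were called either way, beside 78.4% of all genes tested. KO libraries all lay above WT libraries for 3 of the 9, beside 39.1% of all genes, and all below for 5, beside 41.6%. Differences of at least 1 on the log2 scale were called for 5 of the 9 (Ddit3, Trib3, Asns, Eif4ebp1 and Sesn2), beside 26.5% of all genes. The share of members called was thus near that of all genes in this table, and what follows describes the direction and size for each.

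**Figure D1:**
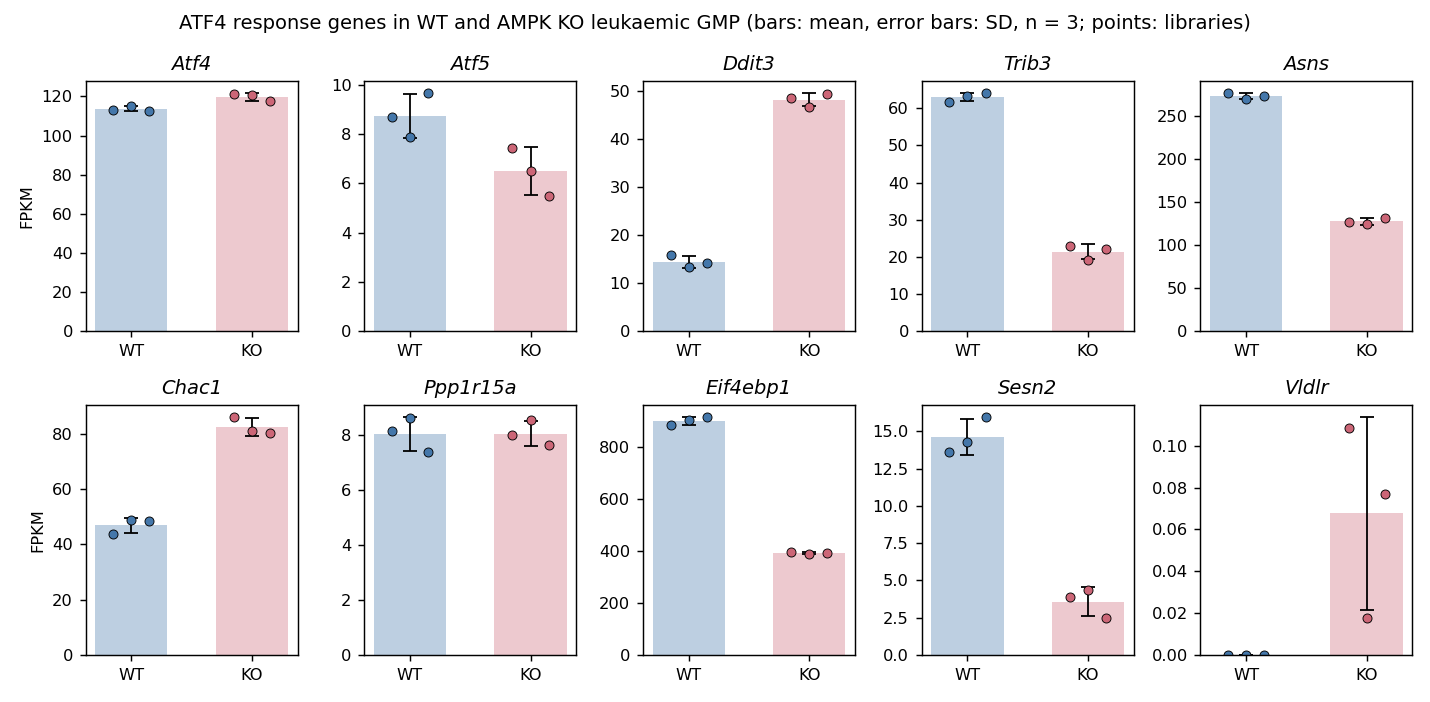
FPKM of the 10 genes in each library (points), with the mean (bars) and SD (error bars) of 3 WT and 3 KO libraries; each panel has its own axis, starting at 0. KO points lie above all WT points for Ddit3, Chac1, Atf4 and Vldlr and below them for Atf5, Trib3, Asns, Eif4ebp1 and Sesn2, the direction of Atf4 being reversed when libraries are rescaled to equal sums, and the points of Ppp1r15a overlap.

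Library scaling bears on the smaller of these differences. The deposited FPKM values sum to between 463683 and 475654 in WT libraries and to between 649611 and 653819 in KO libraries. Rescaling every library to the same sum moved the median log2 difference of all genes tested from -0.02 to -0.41, and quantile normalization moved it to -0.0046. With rescaling, 22.8% of all genes tested were called higher and 59.1% lower, and values under that scaling are to be read against the median of -0.41.

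Atf4 encodes the transcription factor at the head of the response (ENSMUSG00000042406, mm10 chromosome 15, 80255184 to 80257541, plus strand). It stood at 113, 115 and 113 FPKM in WT libraries and 121, 121 and 118 FPKM in KO libraries, from 8810 reads in WT and 7665 in KO. The groups did not overlap, as was so for 80.6% of all genes tested. The log2 difference was 0.08 (SE 0.024, 95% interval 0.018 to 0.13, limma adjusted p = 0.0236) as deposited, but -0.39 (adjusted p = 3.68e-06) with libraries rescaled to equal sums, close to the shift of all genes. With quantile normalization it was 0.031 (adjusted p = 0.274). The call was also lost when WT replicate 1, WT replicate 3, KO replicate 1 or KO replicate 2 was left out (adjusted p = 0.0578, 0.0585, 0.0710 and 0.0635). No direction is therefore given for Atf4 RNA: as deposited KO averaged 105% of WT, and the sign of the difference follows the scaling.

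The 3 tested genes whose values were most like those of Atf4 over the 6 libraries were Rpl41, a ribosomal protein, Ssr2, a subunit of the translocon-associated complex of the ER, and Sdf4, a calcium-binding protein of the Golgi. Their Euclidean distances from it were 0.037, 0.042 and 0.044 on the log2(FPKM + 1) scale, each gene being centred on its own mean. Each of them, like Atf4, differed little between the genotypes as deposited, with log2 differences of 0.062, 0.096 and 0.052.

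Atf5, a close relative of ATF4 that is also translated under stress (ENSMUSG00000038539, chromosome 7, 44812256 to 44816658, minus strand), was a low transcript. WT libraries had 8.68, 7.90 and 9.68 FPKM, and KO libraries 7.45, 6.51 and 5.51 FPKM. Every KO library lay below every WT library, although the gap between the nearest ones was smaller than the spread within either genotype. KO minus WT was -0.39 on the log2 scale (SE 0.11, limma adjusted p = 0.0153), with 777 and 480 reads behind the WT and KO values, and -0.80 with libraries rescaled. Without WT replicate 3 it was -0.32 and the call was lost (adjusted p = 0.0568). Of its exonic bases, 4.11% are shared with genes of the opposite strand.

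Ddit3 encodes CHOP, a transcription factor of the C/EBP type that ATF4 induces and that is known for promoting cell death under lasting ER stress (ENSMUSG00000025408, chromosome 10, 127290774 to 127296288, plus strand). WT libraries held 15.8, 13.3 and 14.2 FPKM and KO libraries 48.5, 46.6 and 49.4 FPKM. The lowest KO library thus lay far above the highest WT library. KO exceeded WT by 1.67 on the log2 scale (SE 0.064, limma adjusted p = 3.15e-07), and 1.22 with libraries rescaled. Among all genes tested, 6.53% were called higher by at least 1.5 on this scale. The values rest on 1099 reads in WT and 3068 in KO. Of the exonic bases of Ddit3, 10.9% are shared with other gene models. Among them are Mars on the opposite strand and another model also named Ddit3 on the same strand. Whether the counting used strand is not given in the sources used here, and strand could not separate the models named Ddit3. Mars, the methionyl-tRNA synthetase, went the other way, from 49.2 ± 0.801 to 18.8 ± 1.27 FPKM (SD, n = 3; limma adjusted p = 3.50e-07).

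Trib3, a pseudokinase that CHOP and ATF4 induce and that is known to bind ATF4 and hold it back (ENSMUSG00000032715, chromosome 2, 152337422 to 152344032, minus strand), was lower in KO. Its values were 61.8, 63.2 and 64.0 FPKM in WT and 22.8, 19.0 and 22.1 FPKM in KO. WT libraries differed little among themselves, and all 3 KO libraries lay well below them. The log2 difference was -1.52 (SE 0.066, limma adjusted p = 6.27e-07), or -1.98 with libraries rescaled. Among all genes tested, 7.06% were called lower by at least 1.5. Ddit3 and Trib3, both targets of the response, thus changed places: the ratio of Ddit3 to Trib3 within a library, which no scaling of libraries can alter, was 0.256, 0.210 and 0.223 in WT and 2.12, 2.45 and 2.23 in KO, a 9.89-fold difference of the means.

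Ppp1r15a encodes GADD34, which recruits a phosphatase to eIF2 and so ends the response (ENSMUSG00000040435, chromosome 7, 45522916 to 45526268, minus strand). It had 8.13, 8.60 and 7.35 FPKM in WT and 7.97, 8.53 and 7.62 FPKM in KO. The KO values lay within the range of the WT values. The log2 difference was 0.0033 with a 95% interval of -0.17 to 0.18 (limma adjusted p = 0.970), and -0.42 (adjusted p = 0.00139) with libraries rescaled, again close to the shift of all genes.

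Eif4ebp1 encodes 4E-BP1, which blocks the cap-binding factor eIF4E when mTORC1 is inactive and is a target of ATF4 (ENSMUSG00000031490, chromosome 8, 27260329 to 27276674, plus strand). It was the most abundant member, at 885, 903 and 915 FPKM in WT and 397, 389 and 392 FPKM in KO. The spread within each genotype was under 2% of the mean (1.70% in WT and 0.953% in KO, as coefficients of variation). KO minus WT came to -1.20 on the log2 scale (SE 0.019, limma adjusted p = 6.78e-09), or -1.67 with libraries rescaled. Eif4ebp2, its paralogue, was far less abundant and fell 1.28-fold, from 6.87 ± 0.370 to 5.39 ± 0.429 FPKM (limma adjusted p = 0.00683), and Eif4ebp3 was at 0 in all libraries.

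Sesn2 encodes sestrin 2, a leucine sensor that restrains mTORC1 and has been linked to the activation of AMPK (ENSMUSG00000028893, chromosome 4, 132492032 to 132510501, minus strand). Its values were 13.7, 14.3 and 16.0 FPKM in WT and 3.87, 4.34 and 2.49 FPKM in KO. It had the largest log2 fall among the 9 tested members, and KO replicate 3 lay lowest. On the log2 scale that was -1.80 (SE 0.16, limma adjusted p = 2.72e-05), or -2.20 with libraries rescaled; the WT libraries held 2286 of its reads and the KO libraries 456. Of the other sestrins, Sesn1 did not pass (5.58 ± 0.839 FPKM in WT and 4.85 ± 0.584 in KO, limma adjusted p = 0.225), and Sesn3 lay at 0.0805 ± 0.0189 and 0.199 ± 0.00820 FPKM, under the minimum for testing. Whether Sesn2 differed more than its paralogues was not tested.

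Asns encodes asparagine synthetase, the textbook target of ATF4 under amino acid shortage (ENSMUSG00000029752, chromosome 6, 7675169 to 7693254, minus strand). It had 277, 269.8 and 273 FPKM in WT and 128, 124 and 132 FPKM in KO. Within each genotype the values were close together, and the genotypes lay far apart. Its log2 difference was -1.09 (SE 0.027, limma adjusted p = 4.43e-08), or -1.56 with libraries rescaled, resting on 33529 WT and 12992 KO reads.

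Chac1 encodes an enzyme that cleaves glutathione and is a marker of the ATF4 and CHOP branch (ENSMUSG00000027313, chromosome 2, 119351229 to 119354381, plus strand). It moved against Asns, with 43.8, 48.7 and 48.3 FPKM in WT and 86.2, 81.0 and 80.5 FPKM in KO. All KO libraries lay above all WT libraries, by more than the spread within either. Its log2 difference was 0.80 (SE 0.050, limma adjusted p = 4.22e-06), and 0.34 (adjusted p = 0.000278) with libraries rescaled. Chac2, its paralogue, rose 1.52-fold from 2.69 ± 0.259 to 4.09 ± 1.15 FPKM (limma adjusted p = 0.0320), a call lost with libraries rescaled (log2 difference 0.085, adjusted p = 0.615). Asns and Chac1 both have a match to the letters of the response element in the stretches printed above.

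Vldlr encodes a lipoprotein receptor that is induced through ATF4 under ER stress (ENSMUSG00000024924, chromosome 19, 27216484 to 27254231, plus strand). It had no read in any WT library, and 14, 2 and 10 reads in KO replicates 1, 2 and 3, or 0.109, 0.0174 and 0.0768 FPKM. Against a limit of 3 reads over the WT group, its observed KO level was 10.5-fold higher. That figure takes the 26 KO reads as they are and allows for counting error in WT only. An exact two-sided permutation test gave p = 0.1, the smallest that 3 against 3 libraries allow. Lrp8, a related receptor, fell 2.71-fold from 2.01 ± 0.132 to 0.742 ± 0.0768 FPKM (limma adjusted p = 6.35e-05).

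**Figure D2:**
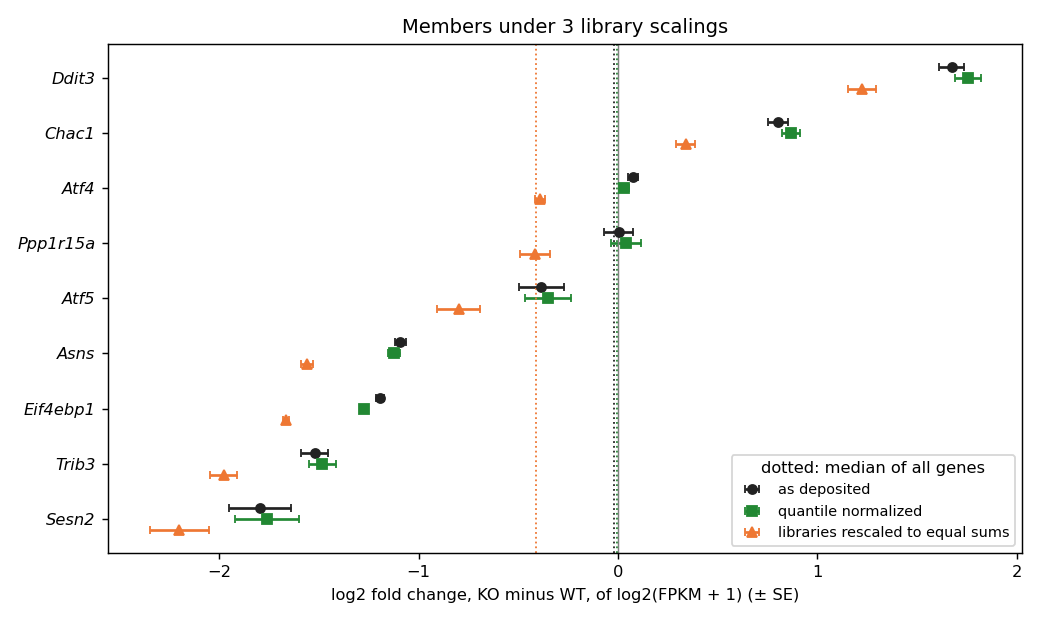
Log2 difference (KO minus WT, with SE) of the 9 tested genes as deposited, after quantile normalization and with libraries rescaled to equal sums; dotted lines mark the median of all genes under each. Ddit3 and Chac1 stay above 0 and Atf5, Asns, Eif4ebp1, Trib3 and Sesn2 below it under all 3, while Atf4 and Ppp1r15a fall to about the shifted median of -0.41 when rescaled.

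Levels per length ordered the members alike at the top in both genotypes and differently below. In WT the order of mean FPKM was Eif4ebp1 (901), Asns (273), Atf4 (114), Trib3 (63.0), Chac1 (47.0), Sesn2 (14.6), Ddit3 (14.4), Atf5 (8.75), Ppp1r15a (8.03) and Vldlr. The ranges of Sesn2 and Ddit3 overlapped, as did those of Atf5 and Ppp1r15a, so these neighbours did not differ beyond their spread. In KO the first 3 kept their order, at 393, 128 and 119.8 FPKM, and Chac1 (82.6) and Ddit3 (48.2) came before Trib3 (21.3), followed by Ppp1r15a (8.04), Atf5 (6.49), Sesn2 (3.57) and Vldlr. No neighbours overlapped in KO.

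Set against Atf4 in the same library, a comparison that no scaling of libraries alters, the members moved apart in both directions. Asns stood at 2.35 to 2.45 times the FPKM of Atf4 in WT and at 1.03 to 1.12 times in KO. Eif4ebp1 went from 7.82 to 8.12 times in WT to 3.22 to 3.34 times in KO. Trib3 went from 0.546 to 0.567 times in WT to 0.158 to 0.189 times in KO. Relative to Atf4, every KO library thus held less of these 3 than the lowest WT library, and the same was so of Sesn2 (0.121 to 0.142 times in WT, 0.0212 to 0.0359 in KO) and Atf5 (0.0687 to 0.0858 and 0.0469 to 0.0616). Ddit3 lay higher in every KO library, at 0.386 to 0.420 times Atf4 against 0.115 to 0.140 times in WT. Chac1 did too, at 0.671 to 0.712 times against 0.387 to 0.429 times. Ppp1r15a overlapped, at 0.0652 to 0.0748 times in WT and 0.0649 to 0.0706 times in KO.

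**Figure D3:**
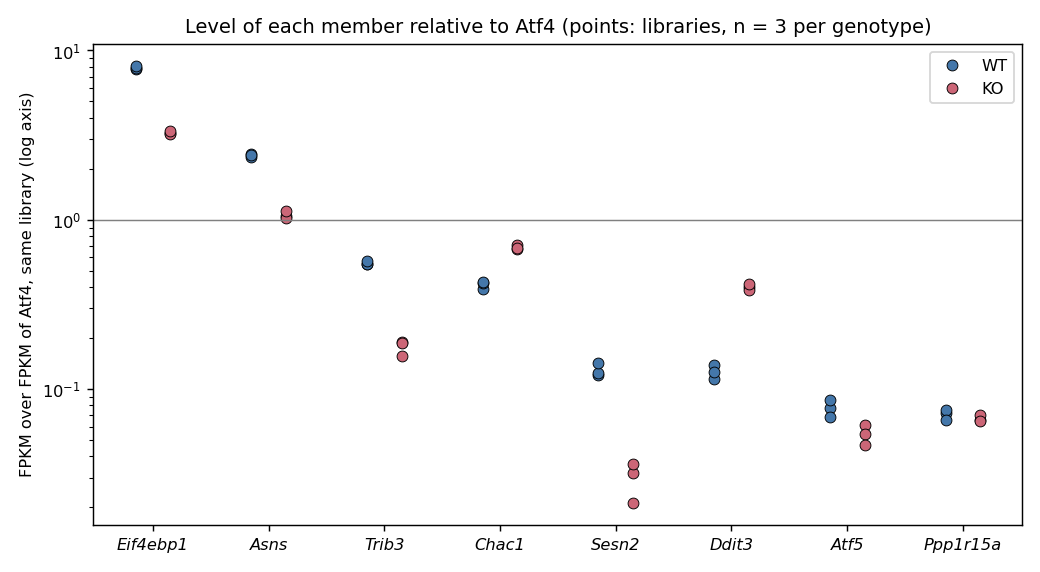
FPKM of 8 members divided by the FPKM of Atf4 in the same library, on a log axis, with 1 point per library (3 WT, 3 KO). KO points are lower than WT points for Eif4ebp1, Asns, Trib3, Sesn2 and Atf5, higher for Chac1 and Ddit3, and overlapping for Ppp1r15a.

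Upstream of ATF4, Eif2ak1, the haem-regulated eIF2 kinase HRI, rose 2.23-fold, from 3.12, 2.87 and 3.01 FPKM in WT to 5.94, 7.02 and 7.13 FPKM in KO (limma adjusted p = 2.64e-05). Of its exonic bases, 11.6% are shared with genes of the opposite strand. Eif2ak3 (the ER kinase PERK) lay at 0.134 ± 0.0172 FPKM in WT and 0.364 ± 0.0663 in KO, and Eif2ak4 (the amino acid sensor GCN2) at 0.573 ± 0.152 and 0.477 ± 0.0394, both under the minimum for testing. Eif2b3 and Eif2b1, subunits of eIF2B, the exchange factor that phosphorylated eIF2 blocks, fell 2.59-fold from 22.1 ± 0.647 to 8.53 ± 0.203 FPKM and 1.90-fold from 54.4 ± 0.822 to 28.7 ± 3.35 FPKM. Ppp1r15b, the constitutive relative of Ppp1r15a, rose 1.54-fold from 1.32 ± 0.150 to 2.03 ± 0.268 FPKM (adjusted p = 0.00855), a call lost with libraries rescaled (adjusted p = 0.406). Of 13 tested genes among eIF2 kinases, eIF2 and eIF2B subunits and their regulators, 2 were higher, 9 were lower and 2 (Eif2ak2 and Impact) did not pass, with a median log2 difference of -0.31 beside -0.02 for all genes tested. With libraries rescaled 1 was higher and 11 lower. Of all genes tested, 38% were higher and 40.4% lower as deposited, and 22.8% and 59.1% with libraries rescaled.

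Among listed basic leucine zipper proteins, partners or relatives of ATF4 and CHOP, Cebpb and Cebpd rose 6.98-fold and 4.73-fold. They went from 8.26 ± 0.534 to 57.6 ± 2.93 FPKM and from 36.6 ± 1.60 to 173 ± 6.89 FPKM. Cebpb and Cebpd share 20.7% and 15% of their exonic bases with genes of the opposite strand. Nfe2l1 and Creb1 fell 2.73-fold and 1.75-fold, from 6.52 ± 0.555 to 2.39 ± 0.125 FPKM and from 1.90 ± 0.113 to 1.09 ± 0.0997 FPKM. Of 11 tested, 7 were higher and 4 lower (median 0.55 beside -0.02), where 38% and 40.4% of all genes tested were. With libraries rescaled 5 were higher and 4 lower, beside 22.8% and 59.1% of all genes tested, and Cebpa and Atf7 lost their calls. Atf3, a further target of the response, lay under the minimum for testing, with 0.256, 0.0513 and 0.230 FPKM in WT and 0.690, 0.285 and 0.251 in KO. These values of Atf3 overlap between the genotypes, with KO replicate 1 the highest.

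Other ATF4 targets that supply amino acids were mostly lower, as Asns was. Of 13 tested genes of amino acid synthesis, 12 were lower and 1 higher as deposited, and 13 were lower with libraries rescaled. Of all genes tested, 38% were higher and 40.4% lower as deposited, and 22.8% and 59.1% with libraries rescaled. The median log2 difference of these synthesis genes was -1.95 with libraries rescaled, beside -0.41 for all genes tested. Cth, the cystathionine lyase that makes cysteine, had 4152 reads in WT and none in KO, at least 1144-fold lower against a limit of 3 reads over the KO group. Cth passed the minimum for testing through WT alone, which fixed the direction of its call. Aldh18a1, which starts proline synthesis, fell 7.11-fold from 22.4 ± 0.931 to 3.16 ± 0.296 FPKM. Of 9 tested amino acid transporters 3 were higher and 6 lower (median -0.50), and 1 and 7 with libraries rescaled. Slc7a3, a carrier of cationic amino acids, fell 9.04-fold from between 14.8 and 15.1 FPKM to 1.66 ± 0.161 FPKM, and Slc1a4, a carrier of neutral ones, fell 2.82-fold from 6.16 ± 0.586 to 2.18 ± 0.356 FPKM. Slc38a2, the glutamine carrier SNAT2, rose 1.80-fold from 7.44 ± 0.582 to 13.4 ± 0.186 FPKM. Slc7a5, the leucine carrier LAT1, rose 1.23-fold as deposited but had a log2 difference of -0.15 (adjusted p = 0.0973) with libraries rescaled, where Slc3a2 was also below 0 (-0.40).

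All 13 tested genes of tRNA charging were lower in KO as deposited, with libraries rescaled and after quantile normalization. Of all genes tested, 40.4% were lower as deposited and 59.1% with libraries rescaled. Xpot, at 3.01 FPKM in WT and 0.956 FPKM in KO, passed the minimum for testing through WT alone, which fixed its direction. Their median log2 difference was -0.97. Tars and Yars, the threonyl and tyrosyl tRNA synthetases, fell 3.10-fold from 72.0 ± 0.531 to 23.3 ± 0.489 FPKM and 2.75-fold from between 40.7 and 42.9 FPKM to 15.1 ± 0.532 FPKM. The element TGATGNAA stands in the promoter windows of 5 of the 8 genes of this list that have one (Aars, Gars, Iars, Tars and Yars). It stands in 3 of 12 for amino acid synthesis, 2 of 7 for amino acid transport and 3 of 17 for stress, growth and secretion. For the list of basic leucine zipper proteins it was found in 2 of 12, and for eIF2 genes in 1 of 11. None of the 17, 6 and 7 genes of the ER chaperone, mitochondrial and paralogue lists hold it. The share was 4.51% of all genes with a window and 2.67% of the tested ones. The target lists were chosen as ATF4 targets, and these shares were not tested.

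Of 17 tested targets linked to cell stress, growth arrest and secretion, 8 were higher, 7 lower and 2 (Nupr1 and Bbc3) did not pass (median -0.026), shares near the 38% and 40.4% of all genes tested. With libraries rescaled the counts were 5 and 9, beside 22.8% and 59.1% of all genes tested. Ndrg1, a stress-induced gene, rose 13.9-fold from 0.627 ± 0.0920 to 8.72 ± 1.01 FPKM, and Gadd45b, of growth arrest, rose 6.09-fold from 6.66 ± 0.934 to 40.6 ± 5.06 FPKM. Stc2, a secreted glycoprotein, fell 48.8-fold from 19.7 ± 0.172 to 0.404 ± 0.171 FPKM. Bcat1, a branched-chain amino acid transaminase, was at least 643-fold lower, with 2332 reads in WT and none in KO. Bcat1, Stc2, Tnfrsf10b and Rhbdd1 passed the minimum for testing through WT alone and Ndrg1 through KO alone, which fixed their directions.

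Of 17 tested genes of the ER chaperone branch, 6 were higher, 8 lower and 3 did not pass (median -0.064). These shares were again near the 38% and 40.4% of all genes tested. With libraries rescaled 4 were higher and 13 lower, beside 22.8% and 59.1% of all genes tested. Pdia3 and Pdia4 had then turned from higher to lower. Calr (calreticulin) and Edem1 (ER degradation) rose 2.71-fold from 58.5 ± 1.39 to 159 ± 3.40 FPKM and 2.64-fold from between 23.6 and 25.8 FPKM to 64.5 ± 1.07 FPKM. Dnajb11 and Canx (calnexin) fell 1.60-fold from 74.9 ± 2.39 to 46.8 ± 1.83 FPKM and 1.59-fold from 17.4 ± 1.07 to 10.9 ± 0.237 FPKM. In the mitochondrial relay that can reach ATF4, Oma1 and Yme1l1, proteases of the inner membrane, rose 1.42-fold from 18.6 ± 0.787 to 26.5 ± 2.11 FPKM and 1.71-fold from 1.94 ± 0.117 to 3.32 ± 0.112 FPKM, the call of Oma1 being lost with libraries rescaled (adjusted p = 0.605). Hspd1 and Hspa9, mitochondrial chaperones, fell 3.88-fold from 109 ± 4.97 to 28.2 ± 1.26 FPKM and 3.64-fold from 78.7 ± 1.05 to 21.6 ± 0.970 FPKM. Of the 7 tested genes of the mitochondrial list, 2 (Oma1 and Yme1l1) were higher and 5 lower, beside 38% and 40.4% of all genes tested. With libraries rescaled 1 was higher and 5 lower, beside 22.8% and 59.1% of all genes tested. As deposited 78.4% of all genes tested were called. The 5 lower genes (Lonp1, Clpp, Hspd1, Hspe1 and Hspa9) are mitochondrial chaperones and proteases that the list holds beside the relay. Dele1 is 1 of 2 listed symbols that matched no row of the expression table, so the list covers the relay only in part. Matching was by symbol, so a row of Dele1 under another name would have been missed. Of 6 tested paralogues of the members, 3 were higher (Chac2 and Ppp1r15b among them), 2 lower (Eif4ebp2 and Lrp8) and Sesn1 did not pass. Lrp8 passed the minimum for testing through WT alone, which fixed the direction of its call. Among all genes tested, 38% were higher and 40.4% lower. Trib1, a relative of Trib3 under the minimum for testing, had no read in WT and 216 in KO. That was at least 87.1-fold higher against 3 reads over the WT group.

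**Figure D4:**
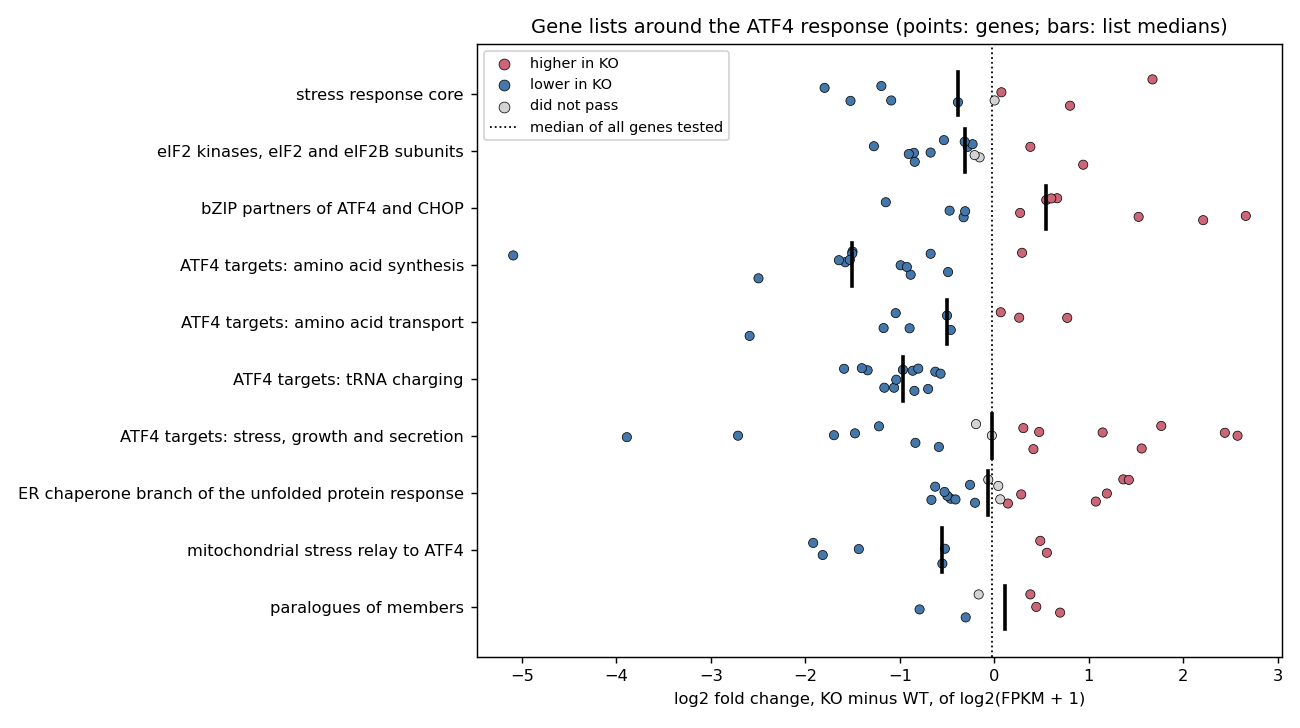
Log2 difference (KO minus WT, log2(FPKM + 1), as deposited) of each tested gene in 10 lists, coloured by call, with list medians as bars and the median of all genes tested (-0.02) as a dotted line. The core spreads from -1.80 (Sesn2) to 1.67 (Ddit3), while all 13 genes of tRNA charging lie below 0.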

How the data were processed

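RNA-seq libraries of 3 WT and 3 KO samples were used, grouped by their titles. Per the labels' protocols, RNA of sorted cells was amplified by Smart-seq2 and made into libraries with Nextera XT. The submitters' processing notes name CASAVA, bcl2fastq, STAR 2.5.3a, DESeq2 1.18.1 and build mm10. The authors deposited FPKM values for 47643 genes; the counter, annotation and strand setting were not given in the sources used here.

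Whole reads were recovered by dividing each value by the library's step per gene length. Read numbers were whole within 0.001 for 16481 genes at the exonic length of GENCODE M21 and for 4649 at a searched length, where the smallest number allowed is given (among the members Atf4, Eif4ebp1 and Ppp1r15a). Depths are therefore lower limits. Reads served for depths, bounds and 1 alternative. As PCR reads without molecular identifiers they cover counting error only. Each bound takes the reads of the group that has them as observed, and allows for counting error in the group without reads alone. Replicates differed by 2.59 to 3.19 times the counting variance, so none was a copy of another. The library scaling of the deposited values followed median-ratio size factors of these reads.

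The 9108 genes whose mean reached 1 FPKM were tested with limma 3.58.1 in R 4.3.3 on log2(FPKM + 1), a pseudocount of 1, with a mean-variance trend, two-sided, Benjamini-Hochberg threshold 0.05; the code was tested on simulated data. Tables and figures used Python 3.11.15, pandas 2.3.3, scipy 1.17.1 and matplotlib 3.10.9. The members and the 16 other lists were chosen with earlier results of these data known. The genes named are the members, the 2 largest called rises and 2 largest called falls of each of 9 pathway lists, and the 3 genes nearest to Atf4; all other genes of the lists that the text names (such as Mars, Atf3 and those that did not pass, lost a call or hold the promoter element) were named after their values were seen. A few genes that this rule names are not reported here. Alternatives were other pseudocounts (0.1 and 0.5), filters (none, and a mean of 5 FPKM), scalings, a replicate block, limma-voom on reads and leaving out each library.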

Additional observations from a re-analysis of the deposited data

How the results depend on the processing

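Ddit3, Chac1, Asns, Trib3, Eif4ebp1 and Sesn2 kept their direction and their call under all 14 alternatives, with log2 differences between 1.22 and 1.76 for Ddit3, 0.34 and 0.87 for Chac1, -1.56 and -1.07 for Asns, -1.98 and -1.45 for Trib3, -1.67 and -1.18 for Eif4ebp1 and -2.20 and -1.61 for Sesn2. Atf5 lost its call without WT replicate 3. Atf4 was -0.39 with libraries rescaled to equal sums and lost its call under 7 alternatives, among them limma-voom on reads (adjusted p = 0.0538). Ppp1r15a changed sign with rescaling (-0.42), with limma-voom (-0.0073), and with single libraries left out, over a range from -0.052 (without WT replicate 3) to 0.049 (without WT replicate 2); it was also -0.035 without KO replicate 2. Over all genes, 3464 were called higher and 3676 lower. At a minimum mean of 5 FPKM, which left 5211 genes to test, 2072 (39.8%) were higher and 2383 (45.7%) lower. Without a filter, over 21132 genes, 4663 were higher and 5769 lower, and with rescaling 2074 were higher and 5383 lower. Leaving out 1 library gave 3305 to 3380 higher and 3507 to 3603 lower genes, and 2 to 3 higher and 4 to 5 lower members. Without a filter Vldlr was tested and did not pass (limma adjusted p = 0.0675).

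Same-numbered libraries did not deviate together (Pearson r over 9108 genes 0.0095, -0.012 and -0.017 for numbers 1, 2 and 3), and not every library correlated best with its own number. With the replicate number as a block, 3420 genes were higher and 3620 lower, and Atf4 lost its call (log2 difference 0.08, adjusted p = 0.0503). Depth limits Vldlr, at 26 reads in all, and Eif2ak3 and Eif2ak4.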
